A study of Caenorhabditis elegans with 34 samples.

Results

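A set of 200 rows of the authors' expression tables, out of 16762, was defined by high abundance in sorted intestine cells of the first larval stage (L1) of Caenorhabditis elegans. The 3 deposited expression tables do not pair their rows with gene identifiers, so the rows have no gene names here, and single rows are called by their number in the table. Row levels are normalized counts: the authors' raw counts times 1 constant per library. A row had to be at least 4 times as abundant in green fluorescent protein (GFP) positive as in GFP-negative L1 cells, with 10 added to each mean (2 on the log2 scale). It also had to reach 100 normalized counts in both L1 GFP-positive libraries and to exceed 3 times the mean of third-stage (L3) GFP-positive cells. These thresholds left 770 rows, and the 200 with the largest ratio of the L1 GFP-positive mean to the higher of the embryo and L3 GFP-positive means were taken, again with 10 added. The last row inside had a ratio of 5.53 and the first row outside 5.51, with no gap between them. The other 570 rows that passed the thresholds are used below as the nearest neighbours of the set.

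The worm intestine is a tube of large epithelial cells that digests food, stores fat and takes part in defence and detoxification. Its cells descend from 1 founder blastomere, and GATA transcription factors, among them ELT-2, switch on and maintain intestinal genes from the embryo through adulthood. L1 is the stage at which hatched animals first feed, and L3 larvae are larger and contain a growing germ line.

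The study profiled polyadenylated RNA of strain JM149. Its transgene, caIs71, puts a fusion of GFP and HIS-2B, a histone, under the elt-2 promoter (elt-2p) and ends in the unc-54 3'UTR. It also carries rol-6(su1006), a dominant marker that makes animals roll. Every group carried it, so there is no group without the transgene. Animals were mixed embryos, L1 or L3 larvae, grown on OP50 bacteria. At each of the 3 stages 4 fractions were sequenced: whole animals, dissociated cells before the sort, 300000 GFP-positive cells and 1000000 cells without GFP. Embryos were dissociated with chitinase for 20 min and pronase E for 5 min, then a syringe needle, and larvae with SDS-DTT for 2 min and pronase E for 30 min, then a dounce. In dissociated or sorted cells, embryo and larva differ in stage and in protocol at once, and the share of each cannot be told apart. Both larval stages had the same protocol. GFP under the elt-2 promoter defined the positive cells, and markers of intestine or of other cell types could not be looked up without gene names, so the label intestine rests on the sort gate alone.

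The data used comprise 30 libraries, with 2 per L1 group, 2 for embryo whole animals and embryo dissociated cells, and 3 for every other group. L1 replicate 2, with 4 libraries, was not analysed here. Totals ran from 10994387 to 49400873 counts. L1 replicate 1 and L1 replicate 3 were sequenced on different instrument models, so in L1 the replicate and the sequencer cannot be told apart. The whole L1 libraries stood apart from each other: across rows their log2 counts per 1000000 (CPM) correlated at 0.888, the lowest value among the 12 groups. Whole L1 replicate 3 correlated with the whole embryo libraries at 0.799 and 0.784, against 0.632 and 0.63 for whole L1 replicate 1. With the whole L3 libraries replicate 3 correlated at 0.861, 0.856 and 0.867, above its 0.7875 and 0.8283 with the dissociated L1 libraries. Replicate 1 correlated with whole L3 at 0.878, 0.88 and 0.875, below its 0.895 and 0.918 with dissociated L1. The main results that rest on whole L1 animals are therefore also given with each of these libraries left out.

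The 200 rows took a larger share of the counts of L1 GFP-positive cells than of any other group. Their share of all counts was 0.285, 0.201 and 0.206% in embryo GFP-positive cells, 5.04 and 3.8% in L1 GFP-positive cells, and 0.833, 0.632 and 0.619% in L3 GFP-positive cells. These values chose the rows and are a description. In GFP-negative cells the share was 0.0239, 0.0194 and 0.0137% in embryo, 0.0749 and 0.077% in L1, and 0.0374, 0.062 and 0.019% in L3. Unsorted dissociated cells, which the rule did not use, gave 0.083 and 0.0654% in embryo, 0.748 and 0.579% in L1, and 0.0589, 0.147 and 0.116% in L3. Both L1 values lay above all embryo and L3 values in that fraction. Whole animals gave 0.0955 and 0.0638% in embryo, 1.28 and 0.554% in L1, and 0.625, 0.622 and 0.671% in L3. Here the L1 range enclosed the L3 range, and only embryo was apart. In these bulk samples fewer intestine cells and less RNA per intestine cell cannot be told apart.

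**Figure D1:**
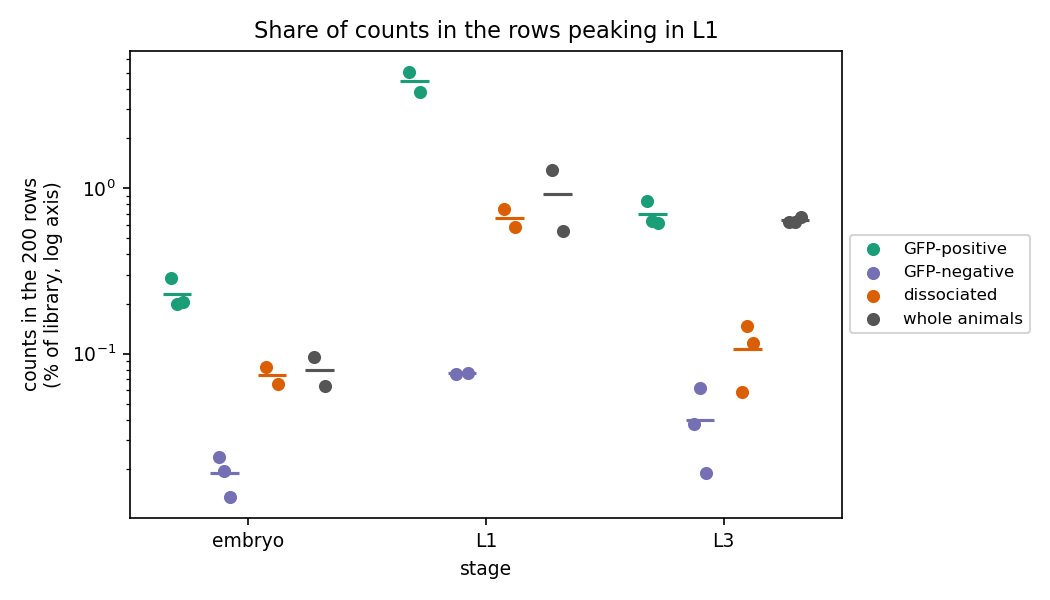
Share of each library's counts that fell in the 200 rows (percent, log axis), by stage and fraction, where each point is 1 library and each bar the group mean. L1 lies above L3 in GFP-positive and in dissociated cells, whereas the whole L1 animals, at 1.28 and 0.554%, enclose the whole L3 animals, at 0.622 to 0.671%.

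Counts were concentrated in few of the rows. In L1 GFP-positive cells the row with the most counts held 19.9% of the counts of the set, the first 5 rows held 47.8% and the first 50 held 86.6%. Row length is unknown, so these are shares of counts and not an order of expression. Without that first row the share was 3.95 and 3.16% in L1 GFP-positive cells, 1 and 0.48% in whole L1 animals and 0.423 to 0.469% in whole L3 animals, so the lower whole L1 value then lay just above the highest whole L3 value. The median row of the set had 42.1 to 71.9 normalized counts in embryo GFP-positive libraries, 984 to 1906 in L1 and 106 to 214 in L3. In GFP-negative libraries the median row had 2.61 to 6.14 in embryo, 22.6 to 32.2 in L1 and 4.89 to 10.6 in L3.

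Dissociated cells showed the L1 peak in libraries that took no part in choosing the rows, although cells of 1 replicate number may come from 1 culture. In that fraction the L1 mean was the highest of the 3 stages for 197 of the 200 rows, against 37.2% of all 16762 rows. Compared with dissociated L3 cells, 153 of the 200 (76.5%) were higher in dissociated L1 cells, where 7.61% of all 16758 genes tested were called higher and 8.96% lower (edgeR quasi-likelihood test, adjusted p under 0.05 over all genes). Of the 200 rows, 183 had an unadjusted p under 0.05, and none was called lower in edgeR or DESeq2. On the values themselves, both L1 libraries lay above all L3 libraries for 193 rows, against 30.8% of all rows. The median log2 fold change was 2.73 for the 200 rows and 0.09 for all genes. Among the 570 neighbours 45.4% were called higher. The count depended on single libraries, and so did the share of all genes called. It was 79, 121 and 110 without dissociated L3 replicates 1, 2 and 3, where 3.91%, 4.95% and 4.33% of all genes were called higher. Leaving out an L1 library left 1 in the group, so only medians are given for it. They were 2.65 and 2.61 without dissociated L1 replicates 1 and 3, and 2.53 on 1 sequencer model, without any L1 replicate 1 library. The medians were 2.4 to 2.96 when any 1 library was left out. Against dissociated embryo cells 151 of the 200 (75.5%) were higher in L1, where 23.4% of all genes were called higher and 25.9% lower, with a median of 3.08. Without the L1 replicate 1 libraries, which left 1 in the group, that median was 2.7. Of the 570 neighbours 43.3% were called higher in L1 and 4.91% lower, with a median of 1.47. In all, 122 rows (61%) passed both comparisons, against 3.5% of all genes.

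Most of the rows were higher in whole L1 animals than in whole embryos. Against whole L3 animals the share called higher was near the background. Between whole L1 animals and whole embryos, 170 of the 200 rows (85%) were called higher in L1 and 1 lower, against 26.3% and 26.2% of all genes, with a median log2 fold change of 3.43 (2.64 to 3.96 with any 1 library left out) where all genes had 0.19. Both L1 libraries lay above both embryo libraries for 191 rows, against 44.5% of all rows. Among the 570 neighbours 60.7% were called higher in L1, with a median of 2.15. The rows also rose from embryo to L3: all whole L3 libraries lay above both embryo libraries for 166 rows, against 42.9% of all rows. Leaving out a whole L1 or whole embryo library left 1 in its group, so only medians of the 200 rows are given. They were 3.8 and 3.27 without whole embryo replicates 2 and 3, and 2.64 and 3.96 without whole L1 replicates 1 and 3. On 1 sequencer model, without the L1 replicate 1 libraries, the median was 2.7. Between whole L1 and whole L3 animals, 21 rows (10.5%) were called higher in L1 and none lower, against 12.5% and 12.4% of all genes. The share higher was near the background and the share lower below it. DESeq2 called 45 (22.5%) higher and 1 lower, against 19.3% and 14.3% of all genes. On means, L1 was above L3 for 159 rows, against 10051 of all 16762 rows. In that comparison 52 rows had an unadjusted p under 0.05. The median log2 fold change was 0.69 for the 200 rows, 0.18 for the 570 neighbours and 0.17 for all genes. Without whole L1 replicates 1 and 3, which left 1 library in the group, it was -0.22 and 1.1, where all genes had -0.05 and 0.12. On 1 sequencer model, without the L1 replicate 1 libraries, it was -0.14, where all genes had 0.02. The number of higher rows was 12, 9 and 10 without whole L3 replicates 1, 2 and 3, against 7.17%, 6.89% and 8.46% of all genes. With library totals as the only scaling, 48 rows (24%) were called higher against 23.3% of all genes, whose higher calls then made up 78.8% of all calls in place of 50.1%. The median of all genes was then 0.63 and that of the 200 rows 1.08, and with relative log expression (RLE) factors they were 0.33 and 0.82. Of the 21 rows, 17 were also higher in dissociated L1 than in dissociated L3 cells, and 3.01% of all genes were called higher in both. On means, 51 rows (25.5%) exceeded 3 times the L3 level in whole animals, against 20.3% of all rows, and 186 (93%) did so in dissociated cells, against 13.6%. With whole L1 replicate 1 alone 74 rows exceeded 3 times the whole L3 mean, and with replicate 3 alone 30 did, against 19% and 19.4% of all rows. These values of single libraries were added after the data were seen. Both whole L1 libraries lay above all whole L3 libraries for 76 rows (38%), against 35.0% of all rows, and below all of them for 9 rows, against 24.8%. The L1 mean was the highest of the 3 stages in whole animals for 158 rows, against 40.2% of all rows. Replicate 1 alone gave 181 such rows and replicate 3 alone 95, against 39.3% and 34.4% of all rows.

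**Figure D2:**
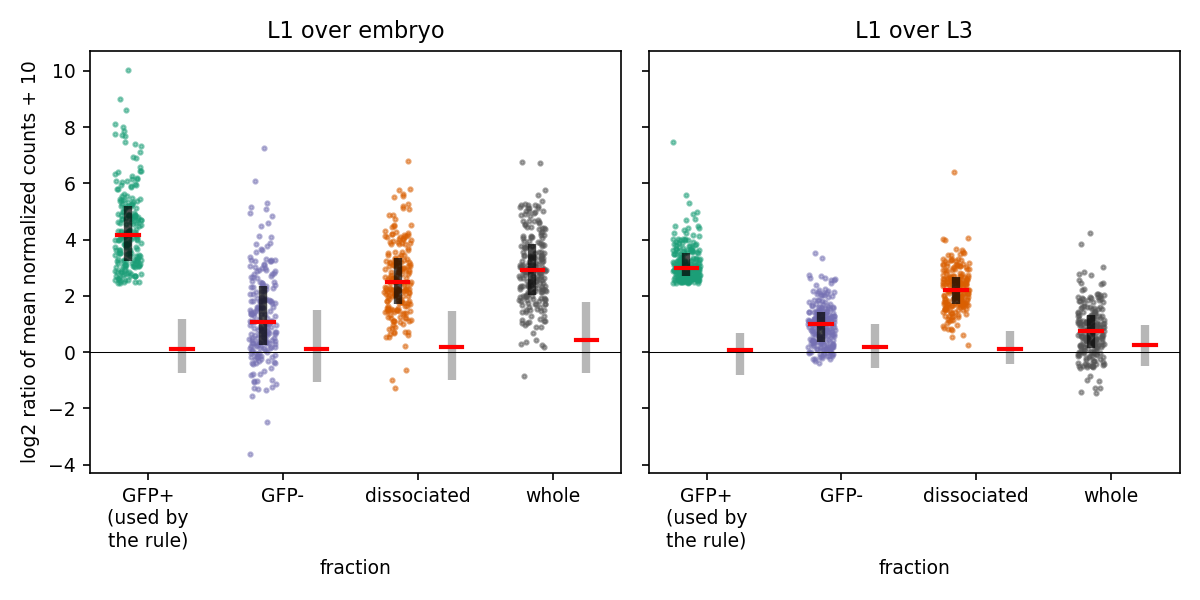
Log2 ratio of group means of normalized counts plus 10, L1 over embryo (left panel) and L1 over L3 (right panel), in 4 fractions, where points are the 200 rows, black bars their quartiles, grey bars the quartiles of all 16762 rows and red lines the medians. For L1 over L3 the median of the 200 rows is 2.98 in GFP-positive cells, which chose the rows, 2.22 in dissociated cells and 0.77 in whole animals.

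The step between whole animals and unsorted cells was accompanied by lower levels of most of the rows in L3, while none passed in L1. In L3, 122 of the 200 rows (61%) were lower in dissociated cells than in whole animals and none higher, against 11.5% and 7.85% of all genes, with a median log2 fold change of -2.54 where all genes had 0.04. Of the neighbours 60.4% were lower, with a median of -2.23. Blocking on the replicate number within stage pairs the L3 dissociated and whole libraries. That block gave 129 rows lower and 1 higher, against 14.2% and 9.74% of all genes. In L3 the share of counts in dissociated cells was 0.0942, 0.236 and 0.172 times that in whole animals of replicates 1, 2 and 3. In L1, none of the 200 rows passed in edgeR between dissociated cells and whole animals, where 3.15% of all genes were called higher and 6.65% lower. There, 11 rows had an unadjusted p under 0.05, and DESeq2 called 1 higher and 5 lower, against 6.77% and 12.4% of all genes. With the compared groups alone in the fit, edgeR called 0 of 15717 genes, with 7 of the rows at an unadjusted p under 0.05. The L1 shares in dissociated cells were 0.583 and 1.05 times those in whole animals of replicates 1 and 3, and the only embryo pair gave 0.684. The median log2 fold change in L1 was -0.32. Without whole L1 replicates 1 and 3, which left 1 library in the group, it was 0.58 and -0.76. Over all genes, scaling by totals alone gave 58.6% of the L3 calls as higher, in place of 40.6%. Then 118 of the rows were lower and none higher, against 9.62% and 13.6% of all genes.

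**Figure D3:**
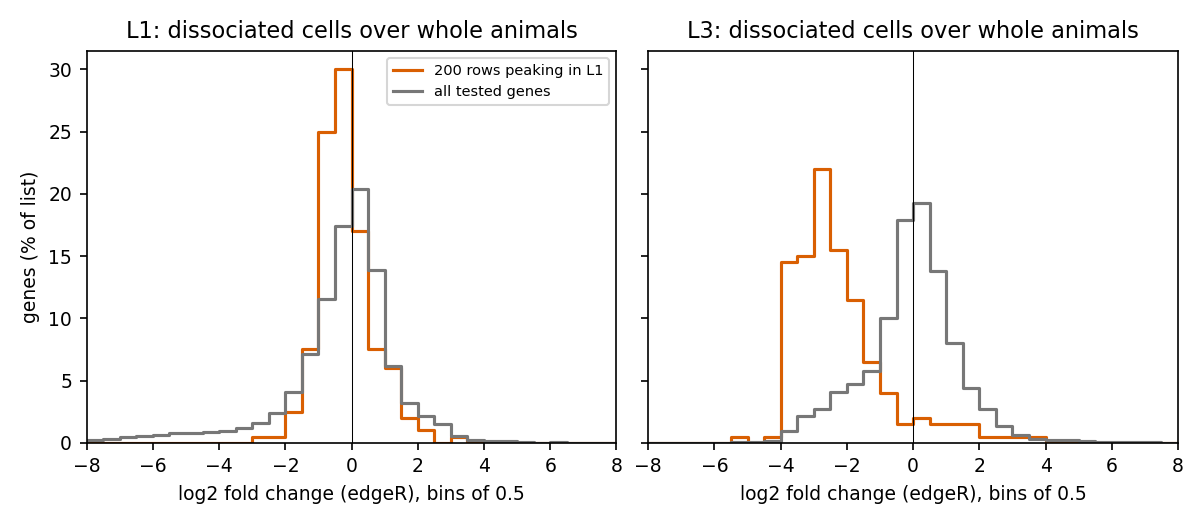
Distribution of edgeR log2 fold changes of dissociated cells over whole animals in L1 (left) and L3 (right), as percent of the 200 rows and of all tested genes in bins of 0.5. In L3 the 200 rows centre on -2.54, and in L1 on -0.32.

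The difference between these dissociation effects was tested directly, in a comparison added after the values were seen. For 17 rows (8.5%) the effect was larger, meaning less negative, in L1 than in L3, and for none smaller, against 0.692% and 2.0% of all genes. The median difference was 2.21 on the log2 scale, with 100 rows at an unadjusted p under 0.05 and 41 rows called higher by DESeq2, against 2.46% of all genes higher and 4.74% lower. The count of 17 depended on the scaling, the model and single libraries. It was 4 with RLE factors, 5 with library totals, 5 with the 4 compared groups alone and 32 with the replicate block within stage. Of all genes 0.418%, 0.239%, 0.24% and 1.34% were then called higher. The count was 5, 3 and 2 without whole L3 replicates 1, 2 and 3, against 0.274%, 0.143% and 0.251% of all genes. Without dissociated L3 replicates 1, 2 and 3 it was 2, 12 and 6, against 0.197%, 0.489% and 0.352%. Leaving out an L1 library left 1 in its group, so only medians are given here. They were 1.98 and 2.17 without dissociated L1 replicates 1 and 3. Without whole L1 replicates 1 and 3 they were 3.04 and 1.69, and without all L1 replicate 1 libraries 2.64. The medians from these fits ran from 1.69 to 3.04, all in the same direction. This contrast is the same as the L1 over L3 difference in dissociated cells minus that in whole animals. Of the 153 rows higher in dissociated L1 than in dissociated L3 cells, 111 were also lower in dissociated than in whole L3, and these comparisons share the dissociated L3 libraries. Both calls held for 2.47% of all genes. Of the 21 rows higher in whole L1 than in whole L3 animals, 5 were lower in dissociated than in whole L3, a pair of calls that held for 0.155% of all genes and shares the whole L3 libraries. Whether the L1 over L3 difference of dissociated cells arose before or during dissociation was not tested.

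The rows were also enriched in GFP-positive cells at the stages whose sorts the rule did not use. It capped the embryo and L3 GFP-positive levels but did not look at the GFP-negative cells of those stages. In L3 165 of the 200 rows (82.5%) were called higher in GFP-positive cells and none lower in edgeR or DESeq2, against 18.8% and 19% of all genes, with 173 rows at an unadjusted p under 0.05. The median log2 fold change was 4.49, or 4.34 with the 6 rows absent from all L3 GFP-negative libraries set to a floor of 3 counts over the group. In embryo GFP-positive cells had 136 rows (68%) called higher and 3 lower, where 18.8% of all genes were called higher and 26.1% lower. The median was 3.39, or 3.25 with the rows at 0 in a group at the same floor, and it was -0.55 for all genes. Blocking on the replicate number within stage gave 137 rows higher and 6 lower, against 19.6% and 30.1% of all genes. In the embryo sort without that block, higher genes made up 41.8% of all calls. They made up 31.5% with library totals as the scaling. Then 130 rows were higher and 5 lower, against 16.6% and 36.1% of all genes. At an adjusted p under 0.01 higher genes made up 55.2% of all calls. Then 116 rows were higher and 1 lower, against 15.2% and 12.3% of all genes. With the compared groups alone in the fit higher genes made up 72.4% of all calls, and 107 rows were higher and 1 lower. That was 67.7% higher of the rows that passed the filter on low counts, against 20.5% of all genes higher and 7.83% lower. Every GFP-positive library lay above every GFP-negative library for 135 rows in embryo and 169 in L3, against 21.0% and 27.0% of all rows. Both sorts called 127 rows (63.5%) higher, against 11.5% of all genes. The L3 sort called 37 higher that the embryo sort did not call, against 5.89% of all genes, and neither sort called 24 rows in either direction, against 40.6%. The neighbours had 78.9% higher in embryo and 88.4% in L3. The test of L1 GFP-positive against GFP-negative cells called 196 of the rows against a background of 19.2%, L1 against L3 GFP-positive cells 198 against 18.2%, and L1 against embryo GFP-positive cells 197 against 26.1%. The rule fixed these last counts, and nothing is read from them.

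Within the set, the second-highest stage in GFP-positive cells was L3 for 159 rows and embryo for 41. The embryo-second rows had a median of 128 normalized counts in embryo GFP-positive cells, 769 in L1 and 77.5 in L3. The L3-second rows had 44.7, 2124 and 199 in the same order of stages. Of the 159 rows, 31 averaged under 10 normalized counts in embryo GFP-positive cells, and of the 41 rows 1 averaged under 10 in L3 GFP-positive cells. In whole animals the L3 mean exceeded the embryo mean for 37 of the 41 and for 146 of the 159, against 8915 of all 16762 rows. In dissociated cells it did so for 10 of the 41 and for 113 of the 159, against 8927 of all rows. This split was made on the GFP-positive values and is a description.

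GFP-negative cells carried the rows at low levels. The L1 GFP-negative level entered the rule as a ceiling. Between L3 and embryo GFP-negative cells, which the rule did not use, 62 rows (31%) were called higher in L3 and 27 (13.5%) lower, against 28.3% and 28.9% of all genes. The share higher was near the background, and the share lower below it. The median log2 fold change was 0.61, or 0.59 with rows at 0 in a group at the floor of 3 counts, and -0.00358 for all genes. In single GFP-negative libraries 12 to 85 of the 200 rows had no count at all.

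The L1 libraries disagreed on the level of single rows, most alike in GFP-positive and dissociated cells. In GFP-positive cells 79 rows (39.5%) were over 2-fold higher in replicate 1 than in replicate 3 and 11 the other way, where 11.1% and 12.3% of all rows were. The mean of these 2 libraries chose the rows, and a row high in 1 of them can enter by that mean, so these counts are a description. The median log2 ratio of replicate 1 over replicate 3, with 10 added to each value, was 0.76. In whole animals 116 rows were over 2-fold higher in replicate 1 and 3 in replicate 3, against 17.5% and 14.2% of all rows, with a median log2 ratio of 1.24. In dissociated cells the counts were 27 and 26, against 5.18% and 11.7%, with a median of 0.17. In GFP-negative cells 22 rows were over 2-fold higher in replicate 1 and 42 in replicate 3, against 7.25% and 16.3%, with a median of -0.10. Of the 79 rows, 69 were also higher in replicate 1 in dissociated cells, where 111 of all 200 were, 73 in whole animals, where 176 were, and 48 in GFP-negative cells, where 88 were. All 11 rows higher in replicate 3 went the same way in dissociated cells and 4 did in whole animals and 9 in GFP-negative cells. Across the 200 rows the log2 ratio of the L1 replicates in GFP-positive cells correlated with that in dissociated cells at Pearson r = 0.85 (Spearman 0.78) with that in GFP-negative cells at 0.56 (0.54) and with that in whole animals at 0.45 (0.32). These points share their libraries, the GFP-positive libraries chose the rows, and the fractions of 1 replicate share a sequencer and perhaps a culture.

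**Figure D4:**
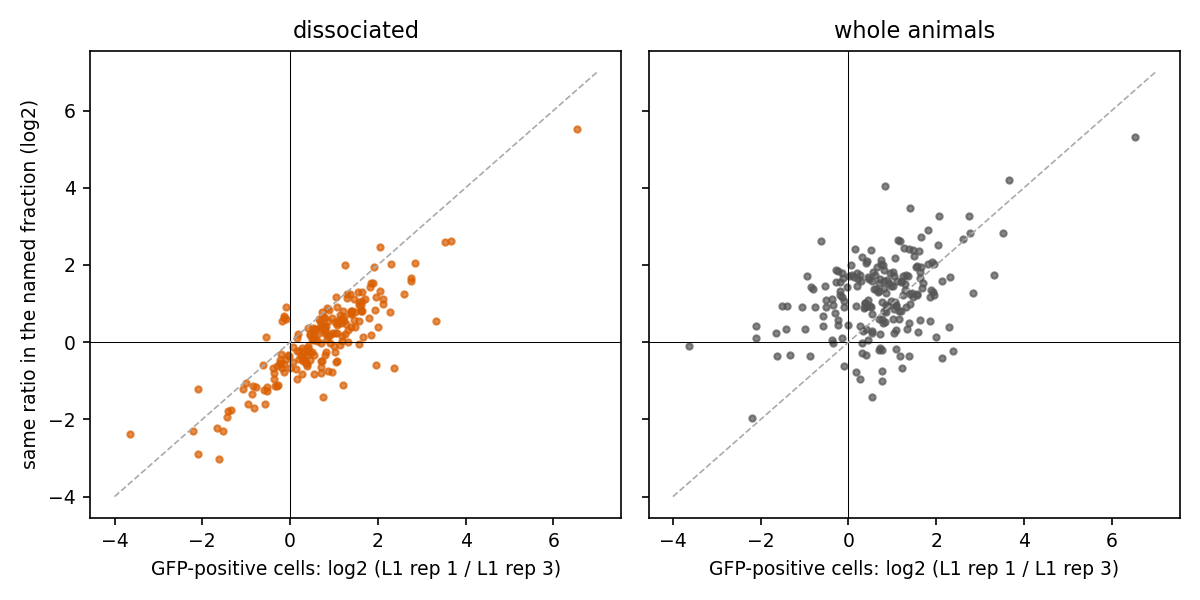
Log2 ratio of L1 replicate 1 over L1 replicate 3 (normalized counts plus 10) for each of the 200 rows: GFP-positive cells on the horizontal axis, dissociated cells (left) or whole animals (right) on the vertical axis, with the dashed line marking equal ratios. Rows follow the diagonal in dissociated cells, at r = 0.85, and lie mostly above 0 in whole animals, with a median of 1.24.

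Row 13167, the row with the largest ratio, was far higher in 1 replicate of L1. It had 22797 normalized counts in L1 GFP-positive replicate 1 and 237 in replicate 3, against 118, 46.4 and 0 in L3 and 0, 1.9 and 1.04 in embryo. Dissociated L1 cells had 1940.1 and 32.7, against 1.11, 0 and 4.29 in dissociated L3 cells. Whole L1 animals had 1019.8 and 16.0, against 48.1, 4.7 and 1.42 in whole L3 animals. In each of these L1 fractions replicate 1 was the high one, and the whole L1 and L3 groups overlapped. The edgeR log2 fold change of whole L1 over whole L3 was 4.78 ± 1.68 (SE), with an adjusted p of 0.0408. Without whole L1 replicate 1 it was -0.27 with an edgeR adjusted p of 0.943, and without whole L3 replicates 2 and 3 it was 4.17 and 4.1 with adjusted p of 0.145 and 0.14. Over its 12 alternatives the adjusted p ran from 0.00357 to 0.943. In dissociated cells it was 8.84 ± 2.11 (SE) with an adjusted p of 0.0061, and 3.85 with an adjusted p of 0.354 without dissociated L1 replicate 1 (9.91e-05 to 0.354 over 12 alternatives). In the embryo sort it had 0, 1.9 and 1.04 in GFP-positive cells, against 38.5, 19.8 and 3.27 in GFP-negative cells, and its log2 fold change of -4.1 ± 2.13 (SE) had an edgeR adjusted p of 0.115.

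Row 3143, the second, had the opposite replicate pattern. Its normalized counts were 106 in L1 GFP-positive replicate 1 and 1432 in replicate 3, against 5.42, 13.3 and 0 in L3 and 13.9, 3.17 and 6.27 in embryo. Dissociated L1 cells had 19.9 and 146, against 0, 0 and 1.07 in L3, and the groups did not overlap. In whole animals L1 had 42.6 and 46.0, against 3.21, 1.18 and 4.26 in L3, and the groups were again apart. The log2 fold change of whole L1 over whole L3 was 3.74 ± 1.31 (SE), with an edgeR adjusted p of 0.0407. It stayed between 3.36 and 4.19 when any 1 library was left out, but passed in none of those 5 fits, whose adjusted p ran from 0.0789 to 0.138 (0.0138 to 0.138 over 12 alternatives). In dissociated cells it was 7.19 ± 1.61 (SE) with an edgeR adjusted p of 0.00425, and 5.21 with an adjusted p of 0.0709 without dissociated L1 replicate 3 (0.000201 to 0.0709 over 12 alternatives).

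Rows 7442 and 5535 were chosen for the lowest whole-animal L1 over L3 values among the 80 rows with at least 10 CPM in those libraries, so their whole-animal p-values are not independent of the choice. Row 7442 had 357 and 179 normalized counts in whole L1 animals, against 510.2, 701 and 787 in whole L3 animals, and its groups did not overlap. In dissociated cells the order turned, with 146 and 291 in L1 against 19.9, 104 and 68.7 in L3. GFP-positive cells had 1862 and 2393 in L1 and 395, 433 and 267 in L3. Its log2 fold change was -1.48 ± 0.57 (SE) in whole animals with an edgeR adjusted p of 0.0594, and 1.73 ± 0.55 (SE) in dissociated cells with 0.0316. The value in dissociated cells missed the threshold without dissociated L1 replicate 1 (2.13, adjusted p 0.0546), L1 replicate 3 (1.13, 0.312), L3 replicate 1 (1.24, 0.157) or L3 replicate 3 (1.88, 0.0616), and over 12 alternatives its adjusted p ran from 0.00691 to 0.312. Row 5535 had 1444 and 761 in whole L1 animals, against 2376, 1794 and 2619 in whole L3 animals. Dissociated cells had 641 and 1506 in L1 against 125, 271 and 137 in L3, and both pairs of groups were apart in opposite directions. The log2 fold change was -1.2 ± 0.51 (SE) in whole animals, with an edgeR adjusted p of 0.0888, and 2.56 ± 0.5 (SE) in dissociated cells, with 0.00149, or 1.78 with an adjusted p of 0.0605 without dissociated L1 replicate 3 (2.74e-05 to 0.0605 over 12 alternatives). In the L3 sort the log2 fold change was 4.19 ± 0.57 (SE) for row 7442 and 4.92 ± 0.54 (SE) for row 5535, with edgeR adjusted p of 5.89e-06 and 3.01e-07.

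**Figure D5:**
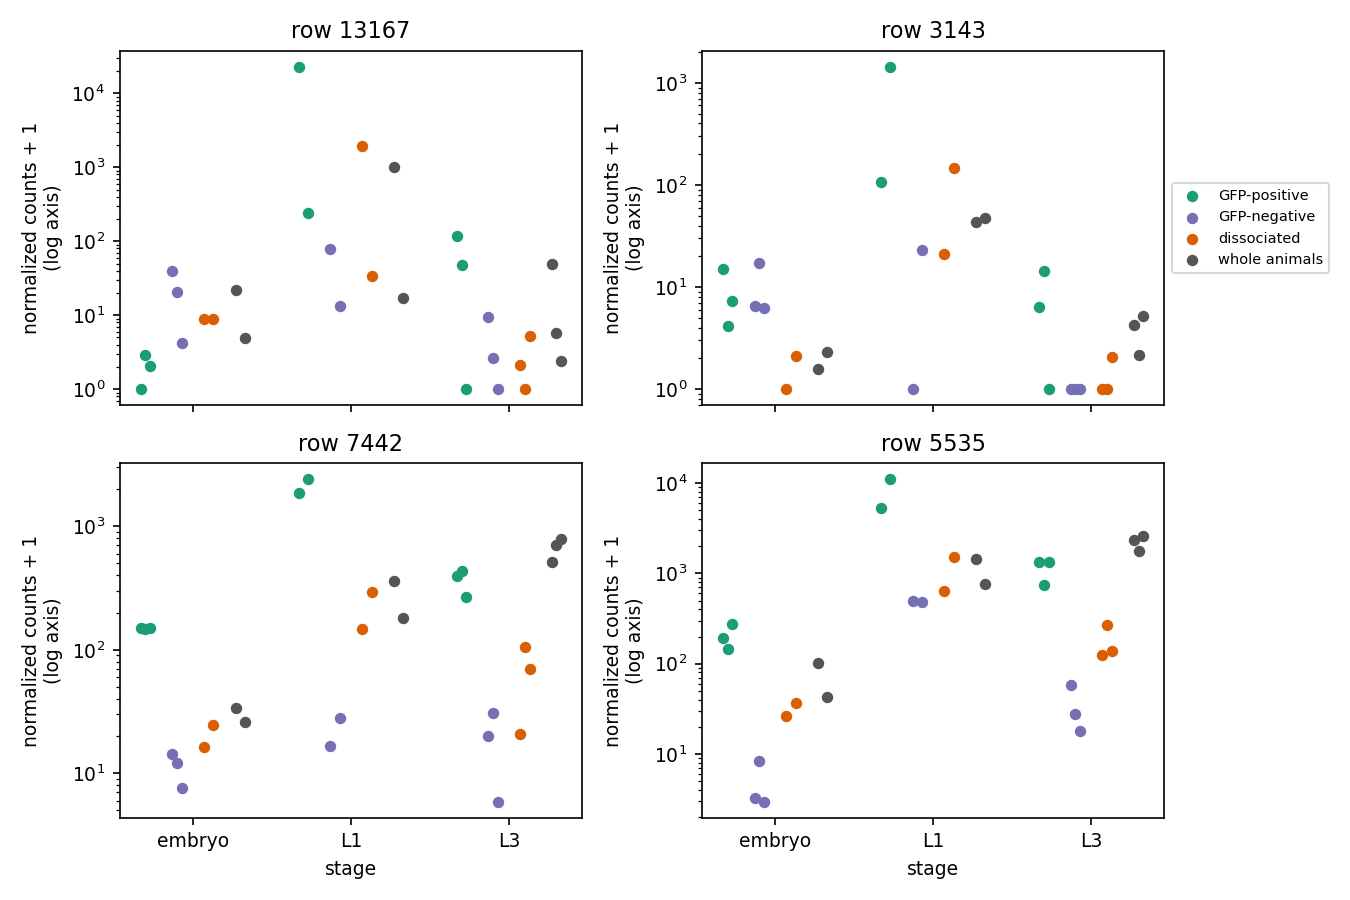
Normalized counts plus 1 (log axis) of 4 rows in each library, by stage and fraction, with 1 point per library. Rows 13167 and 3143 are widely spread between the L1 GFP-positive libraries, while rows 7442 and 5535 are higher in L1 than in L3 in GFP-positive and dissociated cells and lower in L1 than in L3 in whole animals.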

How the data were processed

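The deposited raw data are the authors' whole-number counts for 16762 rows, none with a total under 75. The authors' deposited normalized table is a signal, these counts times 1 constant per library (largest relative deviation 9.86e-07). Tools named in the submitters' processing notes, with no role or order, are HISAT2 2.1.0, featureCounts 1.6.4, fastp 0.20.0, DESeq2 1.28.1, SAMtools 1.9 and deepTools 3.2.0, with the build ce11. The sources used here do not give how rows were chosen, how overlapping or near-identical genes were counted, or whether strand was used. The authors' rlog table, on a log2 scale, was not used. The planned gene lists and cell type markers could not be applied.

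The set was taken from the normalized counts. The test on raw counts was that of edgeR 4.0.16 (R 4.3.3): filterByExpr with a minimum count of 10 (16758 genes, all 200 rows among them), TMM scaling, 1 quasi-likelihood model with 1 mean per group of 30 libraries and 18 residual degrees of freedom, two-sided tests, and Benjamini-Hochberg adjustment over all genes for each of 10 comparisons and the 3 that the rule used. DESeq2 1.42.0, other scalings and left-out libraries were alternatives. Simulated counts were run for the 10 comparisons except the difference in dissociation. They were drawn from the fitted spread with no replicate or sequencer effect, and nothing is read from them here. Standard errors are the log2 fold change over the square root of F. The rule for named rows took the 2 with the largest ratio and the 2 with the lowest whole L1 over whole L3 fold change at 10 CPM or more. Members and lists were chosen with earlier results of these data known. The labels call the samples biological replicates without naming separate cultures, so p-values measure the spread between these samples. Replicate numbers paired the embryo GFP-positive and GFP-negative libraries (correlations of deviations from group means 0.293, 0.433 and 0.212) and the L3 dissociated and whole libraries (0.208, 0.19 and 0.3). In the L3 sort pairing was less clear: equal numbers gave 0.227, 0.0563 and 0.354, and unequal numbers reached 0.0875.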

Additional observations from a re-analysis of the deposited data

Results flagged for a closer look

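The effect of dissociation differed between L1 and L3 for 17 of the 200 rows by the edgeR test of the difference itself, which is why it is listed, and for each it was less negative in L1. Among the 570 neighbours 4.91% were also called less negative in L1, against 0.692% of all genes. Row 7442 had a difference of 3.22 ± 0.79 (SE) on the log2 scale with an edgeR adjusted p of 0.0297, and row 5535 one of 3.76 ± 0.73 (SE) with 0.00853. Both rows were chosen for a low whole L1 over whole L3 value, which is part of this difference, so these 2 values are a description. With 1 L3 library left out the count of 17 became 2 to 12, against 0.143 to 0.489% of all genes. Leaving out dissociated L1 replicate 1 or 3, or whole L1 replicate 1 or 3, left 1 library in a group. The median difference of the 200 rows was then 1.98, 2.17, 3.04 and 1.69, and no count of calls is given for those fits. DESeq2 on all libraries called 41 rows higher, and 412 of all 16762 genes. Row 7442 missed the edgeR threshold without dissociated L3 replicate 1 (2.75, edgeR adjusted p 0.0643) and without whole L3 replicates 2 and 3 (3.14 and 3.02, 0.0755 and 0.0741). Groups of 2 or 3 libraries were not screened for single libraries far from the others.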

How the results depend on the processing

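Shares of the 200 rows called in the direction reported are given here. For whole L1 over whole L3 animals, 10.5% became 24% with library totals, 3% at an adjusted p under 0.01, 3.5% without the HiSeq X-ten libraries (all L1 replicate 1) and 22.5% with DESeq2, and 2.5 to 12% with 1 library left out. The whole-animal median was -0.14 without those libraries and -0.22 and 1.1 without whole L1 replicates 1 and 3. Row 13167 had -0.23 without the HiSeq X-ten libraries, and -0.27 to 7.02 with 1 library left out. Whole L1 over embryo gave 56.5% without the HiSeq X-ten libraries, and 54 to 82.5% with 1 library left out. Dissociated L1 over L3 gave 38% at an adjusted p under 0.01, 39.5% without the HiSeq X-ten libraries and 38.5 to 60.5% with 1 library left out. Dissociated against whole L1 gave 0.5% lower with library totals (7.97%) and with the replicate block (6.73%). The block within stage gave 0.5% higher and 1% lower (4.61% and 7.42%). DESeq2 called 1 row higher and 5 lower, and 1134 and 2082 of all 16762 genes. The median of that comparison was 0.35 with all HiSeq X-ten libraries removed, 0.58 without whole L1 replicate 1 and -0.76 without whole L1 replicate 3. The difference in dissociation gave 2% with RLE, 2.5% with library totals or with the 4 compared groups alone, 16% with the block within stage, 0.5% at an adjusted p under 0.01, 20.5% with DESeq2 and 0 to 29% with 1 library left out.

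The shares of tested rows called for dissociated L1 over embryo, higher in both sorts, GFP-negative L3 over embryo and lower in dissociated than whole L3 stayed within 1.5 times under every alternative run, those with 1 library left out included. The count for GFP-negative L3 over embryo became 35 higher of the 89 rows tested with the compared groups alone, in place of 62. No other count moved by over 1.5 times with the replicate block, which gave 11.0% for the difference in dissociation, against 0.818% of all genes. With a pseudocount of 1 in the ratio 191 of the 200 rows were kept, and with TMM-scaled levels 189. The whole-animal fold changes of rows 7442 and 5535 passed when the fit held the compared groups alone, at edgeR adjusted p of 0.0357 and 0.0438, and that of row 7442 also in DESeq2, at 0.0346. L1 groups of 2 libraries limit every comparison that uses them, and a group left with 1 library is assumed to vary like the others.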
